A study of Mus musculus with 7 samples.

Results

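Heat shock proteins and chaperones are the proteins that fold, refold and sort other proteins, and 88 of the 14641 genes of the series encode them or the factors that switch them on. The members were taken by symbol: every gene named Hsp or Dnaj followed by its number, Bag1 to Bag6, Cct2 to Cct8 with their relatives, the heat shock factors Hsf, and Stip1, with Hspg2, a matrix proteoglycan that shares only the prefix, left out. All 88 passed the filter on low counts, and 6 of them, Dnajb3, Dnajc6, Hsf3, Cct8l1, Cct6b and Hsf2bp, had a mean of fewer than 10 counts per library. The rule reads symbols alone and uses no measured value.

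Whole heart lysate of 4 non-transgenic mice (NTG) and 3 mice with a transgene (mNrf2-TG), all C57BL/6J males, gave 1 RNA library each. The mNrf2-TG mice carry full-length Nrf2 under the αMHC promoter, which is active in cardiomyocytes, and NTG mice were their littermates without the transgene. Nrf2 is the transcription factor that switches on antioxidant genes, and the comparison asks which transcripts differ in hearts that make more of it. The labels give 6 months as the age of the mNrf2-TG mice and no age for NTG, while the methods give 6 to 7 months and the design text 7 to 8 months. The libraries are called here NTG 1 to 4 and mNrf2-TG 17 to 19, after their numbers in the labels.

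Chaperones of the Hsp70 class bind unfolded stretches of other proteins with the help of DNAJ co-chaperones, which bring the client, and of Bag proteins, which help to release it. The cytosol, the mitochondrion and the endoplasmic reticulum (ER) each have a set of their own. The heat shock factor Hsf1 raises the cytosolic set within minutes of stress, by binding repeated units of the letters GAA and TTC, whereas the unfolded protein response raises the ER set through the ER stress element. In heart muscle, chaperones also guard the filaments of the sarcomere, and small heat shock proteins are among the most abundant of them.

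A RefSeq promoter window on GRCm38.p6 was found for 72 of the 88 members, and none for 16, Hspa8 among them. Each window ran from 250 bases before the start of the transcript to 50 after it, and only the bases before the start are printed. A pair of heat shock units, GAANNTTC or TTCNNGAA on either strand, was present in the windows of 20 of 72 members, or 27.8%, against 14.2% of the 11680 genes of the table that have a window. A gene was counted if any of its windows held the letters. Such a pair was found in 7 of 9 stress-inducible members listed further on, 2 of 5 mitochondrial members and 1 of 9 ER members. Hspa1a and Hspa1b, with nearly the same window, and Hspd1 and Hspe1, with overlapping windows, each count as separate members here. Shown first are the twin genes for the inducible Hsp70, Hspa1a and Hspa1b, then Hspb1, whose window holds 2 pairs, with the capitals marking the GAA and TTC of the pair.

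Hspa1a, chr17:34972157-34972406, minus strand: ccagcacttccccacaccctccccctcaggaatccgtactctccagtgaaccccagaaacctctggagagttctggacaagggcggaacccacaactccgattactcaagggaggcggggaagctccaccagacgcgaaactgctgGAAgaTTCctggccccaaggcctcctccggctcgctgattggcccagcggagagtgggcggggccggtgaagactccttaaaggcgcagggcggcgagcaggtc
Hspa1b, chr17:34959239-34959488, minus strand: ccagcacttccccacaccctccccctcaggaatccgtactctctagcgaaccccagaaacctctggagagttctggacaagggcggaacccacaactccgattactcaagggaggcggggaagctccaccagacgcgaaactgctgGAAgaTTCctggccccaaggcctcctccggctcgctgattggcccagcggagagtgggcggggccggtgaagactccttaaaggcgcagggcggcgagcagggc
Hspb1, chr5:135887669-135887918, plus strand: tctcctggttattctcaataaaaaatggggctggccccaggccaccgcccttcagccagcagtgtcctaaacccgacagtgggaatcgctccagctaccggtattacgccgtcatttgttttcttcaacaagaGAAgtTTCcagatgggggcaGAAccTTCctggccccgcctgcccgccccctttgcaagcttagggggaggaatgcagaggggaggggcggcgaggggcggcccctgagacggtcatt

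The windows of Hspa1a and Hspa1b carried the same base at 247 of 250 positions, and in both the pair began 104 bases before the start. In Hspb1 the nearer pair began 97 bases before the start. Of the mitochondrial chaperonins, Hspe1 and Hspd1 are neighbours that are transcribed away from each other. The upstream window of Hspd1 at chr1:55087933-55088182 shared 215 bases with that of Hspe1. Another RefSeq window of Hspd1, at chr1:55088244-55088493, lay outside it and held no pair before the start. The window of Hspe1 is shown because 4 units stand in a row in it, 79 bases before the start at the nearest pair.

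Hspe1, chr1:55087898-55088147, plus strand: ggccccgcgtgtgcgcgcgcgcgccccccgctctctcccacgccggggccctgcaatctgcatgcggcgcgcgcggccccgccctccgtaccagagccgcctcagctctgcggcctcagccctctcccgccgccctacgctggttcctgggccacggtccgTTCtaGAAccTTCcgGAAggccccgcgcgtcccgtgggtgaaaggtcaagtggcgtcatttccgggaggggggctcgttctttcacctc

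The ER stress element, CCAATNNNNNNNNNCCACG on either strand, was found in 3 members, all from the ER list (Hspa5, Hsp90b1 and Dnajc3), and in 0.188% of the genes of the table. The windows of Hspa5, with the element 65 bases before the start, and of Hsp90b1, with 2 elements, the nearer at 107 bases and on the opposite strand, are given with its CCAAT and CCACG (or ATTGG and CGTGG, as read on the opposite strand) in capitals.

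Hspa5, chr2:34771840-34772089, plus strand: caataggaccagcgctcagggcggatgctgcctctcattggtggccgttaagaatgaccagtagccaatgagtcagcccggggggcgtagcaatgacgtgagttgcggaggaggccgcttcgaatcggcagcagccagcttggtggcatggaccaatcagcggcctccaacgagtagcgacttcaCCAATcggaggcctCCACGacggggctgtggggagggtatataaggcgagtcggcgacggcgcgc
Hsp90b1, chr10:86705445-86705694, minus strand: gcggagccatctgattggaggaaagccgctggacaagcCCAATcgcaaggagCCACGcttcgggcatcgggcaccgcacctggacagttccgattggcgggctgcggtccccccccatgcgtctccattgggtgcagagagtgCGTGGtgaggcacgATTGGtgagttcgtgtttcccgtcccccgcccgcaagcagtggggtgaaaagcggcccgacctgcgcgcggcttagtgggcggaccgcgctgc

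The starts are those of RefSeq, and GENCODE M21 places the outermost end of Hspe1, Hspa5 and Hsp90b1 within the window printed. A match of these letters is a description of the window and not a binding site. The core of the antioxidant response element that Nrf2 binds is TGACNNNGC. Of the genes with a window, 18.1% of the members and 16.7% of all genes of the table held it.

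The libraries held 6534684 to 8405857 counts. Levels are given as normalized counts, which are counts scaled to the mean library size, and library by library in the order NTG 1 to 4 and mNrf2-TG 17 to 19. Log2FC is the log2 fold change of mNrf2-TG over NTG with its standard error (SE), and a gene was called lower or higher at an adjusted p under 0.05. In the targeted gene, Nfe2l2 (Nrf2), the 4 NTG libraries reached 729 to 1392 counts and the 3 mNrf2-TG libraries 10912 to 12839 (Log2FC 3.36, SE 0.18, adjusted p = 2.96e-06). Markers of heart muscle were abundant in every library, with an NTG sum of 592683 to 624042 normalized counts over 8 genes against 502363 to 523760 for mNrf2-TG, and 3 of the 8 (Myl2, Tnni3 and Pln) were lower and 1 (Nppa) higher in mNrf2-TG. Over 6 macrophage markers the NTG sum was 1809 to 2171 against 2972 to 4045 for mNrf2-TG, with 5 of 6 higher. Over 5 fibroblast markers it was 7239 to 9372 and 9937 to 10368, with 3 of 5 higher. Over 11 immediate-early genes, which respond quickly to the handling of tissue, it was 2867 to 3954 against 2210 to 2570, with 4 of 11 lower. The sum over 6 endothelial markers was 6188 to 6753 and 5772 to 6120, with 1 of 6 higher and 2 lower, and that over 4 red blood cell entries, of which 2 are Entrez genes under the symbol Hbb-bs, was 2085 to 3242 and 1486 to 3181, with 0 of 4 called. Over 5 skeletal muscle markers the sum was 297 to 574 and 216 to 337, with 1 of 5 lower, and over 3 adipocyte markers it was 0 to 3.60 and 1.08 to 19.97, with 0 of 3 called. The part of these cell types in the chaperone values was not tested.

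The library NTG 3 was the lowest of the NTG libraries in many chaperone genes, and it was singled out after its values were seen. Of the 88 members, 44 (50%) had their lowest NTG value in NTG 3, against 28.32% of all genes tested. In the stress-inducible list the count was 9 of 10. NTG 3 also had the highest sum of smooth muscle and pericyte markers in NTG, 10933 normalized counts against 3617 to 4310 in NTG 1, 2 and 4 and 7609 to 11340 in mNrf2-TG, and 1 of the 5 markers in that list (Rgs5) was lower. Most of this sum was Acta2, smooth muscle actin, with 7707 counts in NTG 3. Counts of calls are therefore given both with all 7 libraries and without NTG 3. Where NTG 3 was the lowest NTG library, leaving it out makes the Log2FC more negative by construction. Values without NTG 3 therefore describe its weight and are no independent test.

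With all 7 libraries, 18 of the 88 members had an adjusted p under 0.05 in edgeR's quasi-likelihood test, 15 lower and 3 higher in mNrf2-TG. Over all 14637 genes tested, 17.2% were called, 8.73% lower and 8.48% higher. Of the members, 15 of 88 lower is above that background and 3 of 88 higher is below it. The background holds 2568 genes with a mean count under 10, against 6 of the 88 members. With a stricter filter on low counts, filterByExpr, 2596 of 12170 genes were called, and 16 members were lower and 3 higher. The part of expression level in these counts was not tested. The median Log2FC of the 88 members was -0.14, while that of all genes was 0.0012, and 57 members (64.77%) had a negative Log2FC against 49.94% of all genes. In 18 members every mNrf2-TG library was below every NTG library (14.7% of all genes), and in 7 every one was above (15% of all genes). Without NTG 3 the counts were 26 lower and 4 higher, against a background of 10.1% lower and 10.1% higher. Fewer cells of a type and less RNA per cell cannot be told apart in such whole-heart libraries. As a share of all counts, the 88 members took 2.311%, 2.126%, 1.876% and 2.208% in NTG 1 to 4 and 1.956%, 1.962% and 1.794% in mNrf2-TG 17 to 19, so NTG 3 lay among the mNrf2-TG values.

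**Figure D1:**
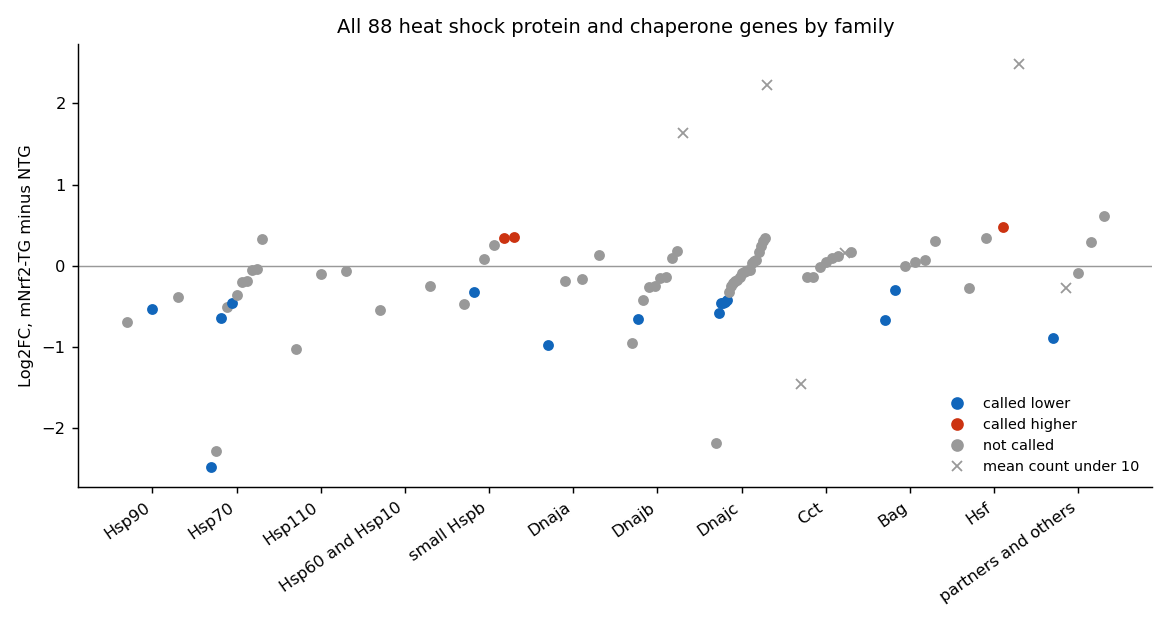
The Log2FC between mNrf2-TG and NTG (vertical axis, mNrf2-TG minus NTG) of each of the 88 members, grouped by family along the horizontal axis and ordered within a family by value. Blue points are the 15 members called lower, red points the 3 called higher, grey points the members not called and grey crosses the 6 members with a mean count under 10, none of which was called.

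The stress-inducible cytosolic members, 10 genes that heat shock and proteotoxic stress raise, had the largest negative median of the lists, a Log2FC of -0.82, and 9 of 10 had a negative Log2FC. With all 7 libraries 3 of 10 were lower (Bag3, Dnaja1 and Hspa1b) and 0 higher, against 8.73% and 8.48% of all genes tested. Without NTG 3, 8 of 10 were lower, against 10.1% of all genes, with a median Log2FC of -1.08. The summed level of the list was 24417, 19752, 11657 and 17602 normalized counts in NTG 1 to 4 and 14112, 12772 and 8801 in mNrf2-TG 17 to 19. NTG 3 alone lay within the range of mNrf2-TG, and the other 3 NTG libraries were above it.

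Hspa1b (chr17:34956436-34959238 on GRCm38), which encodes the inducible Hsp70, had 2086, 1189.7, 119.6 and 1026 normalized counts in NTG 1, 2, 3 and 4 and 319.5, 177 and 101 in mNrf2-TG 17, 18 and 19. Its mean was 1105 ± 806 in NTG (SD, n = 4) and 199 ± 111 in mNrf2-TG (SD, n = 3), at Log2FC -2.48, SE 0.74, adjusted p = 0.0443. The twin gene Hspa1a (chr17:34969190-34972156), which encodes nearly the same protein, had 2042, 1235, 128 and 988 normalized counts in NTG and 395, 191 and 98.9 in mNrf2-TG (Log2FC -2.28, SE 0.74, adjusted p = 0.0609). In both genes NTG 3 fell among the mNrf2-TG libraries and NTG 1 was the highest of all, so that the groups overlapped. The call of Hspa1b was lost without any other single library (adjusted p up to 0.141) and in limma-voom (adjusted p = 0.170). Leaving out NTG 3 gave Log2FC -2.86, SE 0.37, adjusted p = 0.000639 for Hspa1b and Log2FC -2.65, SE 0.41, adjusted p = 0.00174 for Hspa1a. Many reads of 50 bases cannot be assigned to 1 of the 2 genes, since 62.3% of the 50-base stretches of Hspa1b and 66.3% of those of Hspa1a occur in transcripts of other genes.

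Hsph1, an Hsp110 that recharges Hsp70, had 3402, 2508, 870.3 and 2697 normalized counts in NTG and 1490.2, 1250.2 and 759.7 in mNrf2-TG (Log2FC -1.02, SE 0.39, adjusted p = 0.0969). Dnaja1, a farnesylated partner of Hsp70, had 1968, 1559.6, 649.6 and 1558 normalized counts in NTG and 781, 757 and 649 in mNrf2-TG (Log2FC -0.98, SE 0.29, adjusted p = 0.0453). Dnajb1, the Hsp40 that heat shock raises together with Hsp70, had 516, 384, 149.5 and 553 normalized counts in NTG and 175, 209 and 237 in mNrf2-TG (Log2FC -0.95, SE 0.35, adjusted p = 0.0945). These 3 genes shared the shape of Hspa1a, with NTG 1, 2 and 4 above all mNrf2-TG libraries and NTG 3 within their range or, for Dnajb1, below it. In the fit without NTG 3 the Log2FC values were -1.30 (adjusted p = 0.00205), -1.22 (adjusted p = 8.4e-05) and -1.22 (adjusted p = 0.000511). The call of Dnaja1 was lost without any other single library (adjusted p up to 0.139), and in the DESeq2 Wald test (adjusted p = 0.0602), limma-voom (adjusted p = 0.0832) and on the scale of library totals (adjusted p = 0.0509).

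Bag3, which works with Hspb8 to clear damaged filament proteins in muscle, had 4769.6, 4154, 2960.4 and 3475 normalized counts in NTG and 2662, 2591 and 1972 in mNrf2-TG. All mNrf2-TG libraries were below all NTG libraries, NTG 3 included, with a mean of 3839.7 ± 789 in NTG (SD, n = 4) and 2408 ± 379 in mNrf2-TG (SD, n = 3), at Log2FC -0.67, SE 0.16, adjusted p = 0.0194. Of the 10 stress-inducible genes it was the only one whose groups did not overlap. Its call was lost without NTG 2 (adjusted p = 0.0566) and without mNrf2-TG 19 (adjusted p = 0.0758).

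Hsp90aa1, the inducible form of Hsp90, had 3187, 2889.7, 1105 and 2274 normalized counts in NTG and 1895, 1496 and 988 in mNrf2-TG (Log2FC -0.70, SE 0.32, adjusted p = 0.167). Hspb1, the small heat shock protein known as Hsp25 in mice, had 2546, 2212, 1545 and 2089.8 normalized counts in NTG and 1895, 1579 and 1079 in mNrf2-TG (Log2FC -0.47, SE 0.20, adjusted p = 0.132). Both were called without NTG 3, at a Log2FC of -0.93 and -0.59 with adjusted p = 0.00935 and 0.0323. Of their 50-base stretches, 47.5% and 50.1% occur in transcripts of other genes, chiefly Gm12346 (41.8%) and Hsp25-ps1 (48.8%). Hspa4l, an Hsp110 relative, had 1104, 959, 736 and 910.0 normalized counts in NTG and 987, 945 and 725 in mNrf2-TG (Log2FC -0.067, SE 0.14, adjusted p = 0.789), and its groups overlapped. Dnajb4, a DNAJ partner that is abundant in muscle, was the only gene of the list with a positive Log2FC (Log2FC 0.19, SE 0.19, adjusted p = 0.55), with 2796, 2660.2, 3393 and 2032 normalized counts in NTG and 3513, 3577 and 2191 in mNrf2-TG. Neither of these last members was called with or without NTG 3.

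**Figure D2:**
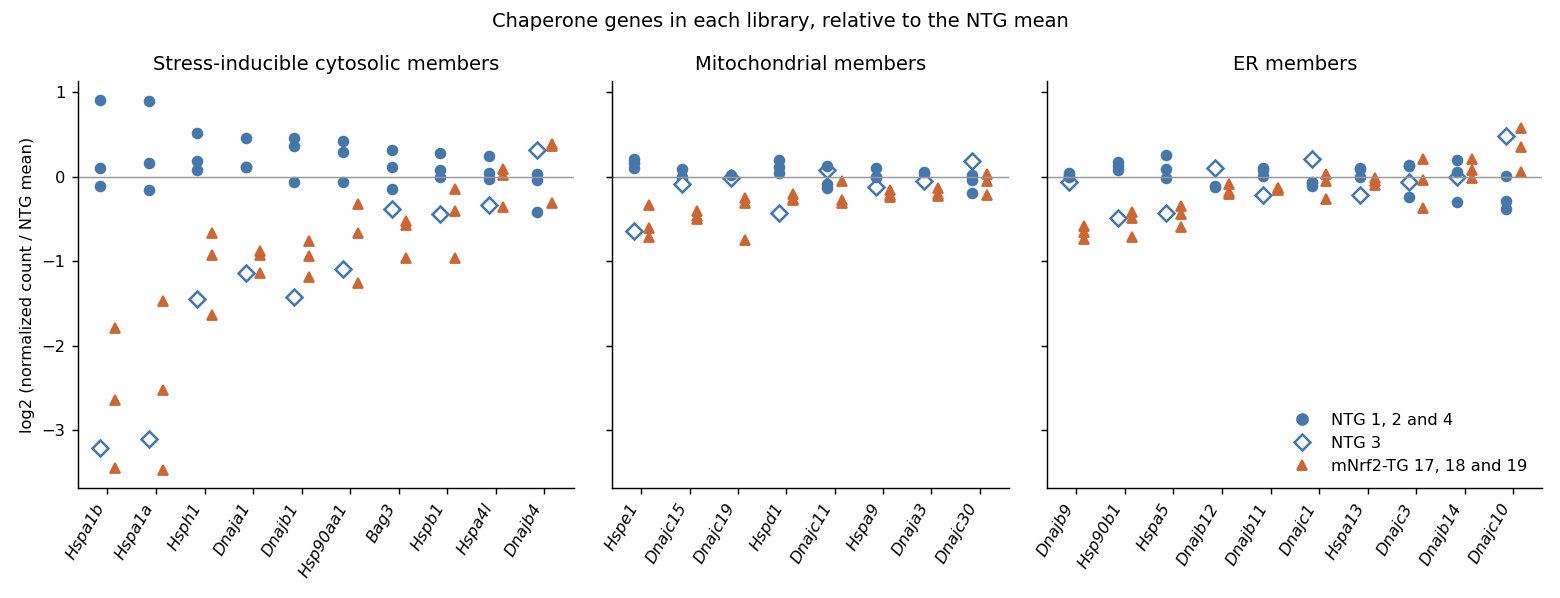
The level of each stress-inducible, mitochondrial and ER member in each library, as log2 of the normalized count over the NTG mean (vertical axis), with genes along the horizontal axis. Filled circles are NTG 1, 2 and 4, open diamonds NTG 3, and triangles mNrf2-TG 17, 18 and 19. The open diamond is the lowest NTG point for 9 of the 10 stress-inducible genes, and the spread is smaller in the mitochondrial and ER panels.

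Among the constitutive partners of these chaperones, 2 of 6 were lower and 1 was higher with all 7 libraries, against 8.73% and 8.48% of all genes. Hspa8, the constitutive Hsp70 that is among the most abundant chaperones of any cell, had 11650.4, 10647, 9366 and 9974 normalized counts in NTG and 5785, 8002 and 6149.5 in mNrf2-TG. Its groups did not overlap, with a mean of 10409 ± 979 in NTG (SD, n = 4) and 6646 ± 1189 in mNrf2-TG (SD, n = 3), at Log2FC -0.65, SE 0.12, adjusted p = 0.00622, although 39.4% of its 50-base stretches also occur in other transcripts, chiefly the pseudogene Gm15459. Stip1, the adaptor that hands clients from Hsp70 to Hsp90, had 3127, 2651, 1526 and 2698 normalized counts in NTG and 1451, 1469 and 1126 in mNrf2-TG. It did not overlap either, with NTG 3 close to the highest mNrf2-TG value (Log2FC -0.89, SE 0.21, adjusted p = 0.0176), and the call was lost without mNrf2-TG 17 (adjusted p = 0.0520) or 19 (adjusted p = 0.0727). Hsp90ab1, the constitutive Hsp90, had 22106, 21337, 15243 and 18834 normalized counts in NTG and 14635, 16681 and 13115 in mNrf2-TG (Log2FC -0.39, SE 0.13, adjusted p = 0.0645), and NTG 3 was again inside the mNrf2-TG range. With NTG 3 left out, its difference was Log2FC -0.49, SE 0.094, adjusted p = 0.00568, and in the DESeq2 Wald test it was called with all 7 libraries (adjusted p = 0.0305). Hspa4, a constitutive Hsp110, had 2369, 2326, 1964 and 2280.0 normalized counts in NTG and 2225, 2111 and 1913 in mNrf2-TG (Log2FC -0.10, SE 0.085, adjusted p = 0.453).

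The heat shock factors themselves went in opposite directions by value. Hsf1, the factor that drives the stress-inducible genes, had 293, 286, 330.0 and 326 normalized counts in NTG and 251, 256 and 259.6 in mNrf2-TG (Log2FC -0.27, SE 0.085, adjusted p = 0.0525). Its groups did not overlap, and the adjusted p lay just above the threshold. It passed in 2 of the 14 alternatives, both with stricter filters on low counts. These gave adjusted p = 0.0462 with filterByExpr and 0.0449 with at least 10 counts in every library of a group. The value was 0.0885 in the DESeq2 Wald test, 0.0555 in limma-voom and 0.0806 on the scale of library totals. Of the 7 fits that left out 1 library, 0 called Hsf1 (adjusted p up to 0.141). NTG 3 had its highest value, whereas in 9 of the 10 stress-inducible genes it was the lowest NTG library. Hsf2, a second factor of the family, was higher, with 128, 130.5, 155 and 158 normalized counts in NTG and 203, 212 and 179.7 in mNrf2-TG (Log2FC 0.47, SE 0.11, adjusted p = 0.0202). Its mNrf2-TG libraries were all above NTG. The call for Hsf2 was lost when NTG 1, NTG 2, mNrf2-TG 17 or mNrf2-TG 18 was left out, with an adjusted p of at most 0.076. Hsf4, the factor of the lens, had 23.0, 16.2, 18.6 and 26.9 normalized counts in NTG and 21.5, 27.6 and 30.9 in mNrf2-TG, and was not called (adjusted p = 0.383).

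The 8 mitochondrial members all had a negative Log2FC, with a median of -0.23. With all 7 libraries 2 were lower (Dnajc15 and Dnajc19) and 0 higher, against 8.73% and 8.48% of all genes tested. In 4 of the 8 every mNrf2-TG library was below every NTG library, against 14.7% of all genes. With NTG 3 left out, 5 were lower, against 10.1% of all genes, and the median was -0.30. The summed level was 19082, 20162, 16597 and 19132 normalized counts in NTG 1 to 4 and 16612, 15519 and 15680 in mNrf2-TG 17 to 19, so that NTG 3 lay just inside the mNrf2-TG range.

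Dnajc15, a DNAJ protein of the inner membrane, had 793, 804, 759 and 860.2 normalized counts in NTG and 606, 585 and 570.0 in mNrf2-TG. Its mean was 804 ± 42.1 in NTG (SD, n = 4) and 587 ± 17.9 in mNrf2-TG (SD, n = 3), at Log2FC -0.45, SE 0.071, adjusted p = 0.00317, and its 4 NTG libraries lay close together and all above mNrf2-TG. Dnajc19, a DNAJ protein of the import motor whose loss causes a form of dilated cardiomyopathy, had 294, 292, 293 and 299 normalized counts in NTG and 249, 175 and 238 in mNrf2-TG (Log2FC -0.42, SE 0.12, adjusted p = 0.036). Its NTG values were nearly equal and mNrf2-TG 18 was the lowest, and the locus overlaps Fxr1 on the opposite strand, whose reads cannot be told apart if the counting did not use strand. Its call was lost in 5 of the 7 fits that left out 1 library, all except those without NTG 3 or mNrf2-TG 17 (adjusted p up to 0.0838), and on the scale of library totals (adjusted p = 0.0541).

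Hspa9, the mitochondrial Hsp70 that pulls proteins through the inner membrane, had 10391, 11160.2, 9552 and 10411 normalized counts in NTG and 9348, 8767 and 8935 in mNrf2-TG (Log2FC -0.20, SE 0.068, adjusted p = 0.0668). Dnaja3, its DNAJ partner, had 1654, 1764, 1663 and 1787 normalized counts in NTG and 1571, 1472 and 1489.5 in mNrf2-TG (Log2FC -0.18, SE 0.065, adjusted p = 0.0787). Neither was called, and in both the groups did not overlap. The test was passed by Hspa9 when NTG 3 was left out (adjusted p = 0.0231) and in the DESeq2 Wald test (adjusted p = 0.0462). Hspd1 and Hspe1 encode Hsp60 and Hsp10, the 2 parts of the folding chamber of the matrix, and 1 upstream window of Hspd1 overlaps the Hspe1 window shown above. Hspd1 had 4334, 4598, 2976 and 4119.9 normalized counts in NTG and 3474, 3314 and 3334 in mNrf2-TG (Log2FC -0.25, SE 0.13, adjusted p = 0.213), and Hspe1 829.8, 802, 461 and 774 normalized counts in NTG and 569, 471 and 436 in mNrf2-TG (Log2FC -0.54, SE 0.19, adjusted p = 0.0722). In both NTG 3 was the lowest NTG value, below all 3 mNrf2-TG libraries for Hspd1 and below mNrf2-TG 17 and 18 for Hspe1, and without NTG 3 both were called (Log2FC -0.37, SE 0.068, adjusted p = 0.00474, and Log2FC -0.71, SE 0.099, adjusted p = 0.0011). With all 7 libraries the DESeq2 Wald test called Hspe1 (adjusted p = 0.0306). Of the 50-base stretches, 42.1% in Hspd1, chiefly shared with Hspd1-ps3, and 22.8% in Hspe1 also occur in other transcripts. The 2 loci overlap by 112 bases on opposite strands. Dnajc11, of the outer membrane, and Dnajc30 had a Log2FC of -0.21 (adjusted p = 0.163) and -0.073 (adjusted p = 0.691).

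The 10 ER members had a median Log2FC of -0.11, with 8 of 10 negative. Of these members 3 were lower (Dnajb9, Hsp90b1 and Hspa5) and 0 higher, against 8.73% and 8.48% of all genes tested. Without NTG 3 the counts were 3 lower and 1 higher, against 10.1% of all genes in each direction, and the median was again -0.11. The summed level was 18854, 18431, 14179 and 20197 normalized counts in NTG 1 to 4 and 14135, 14138 and 12345 in mNrf2-TG 17 to 19, and here the groups did not overlap, although NTG 3 and mNrf2-TG 18 were close.

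Dnajb9 (chr12:44205559-44210326), a DNAJ partner of the ER Hsp70 that the unfolded protein response raises, had 779, 769, 724 and 757 normalized counts in NTG 1, 2, 3 and 4 and 479.9, 505 and 456 in mNrf2-TG 17, 18 and 19. Its mean was 757 ± 24.1 in NTG (SD, n = 4) and 480.3 ± 24.9 in mNrf2-TG (SD, n = 3), at Log2FC -0.66, SE 0.071, adjusted p = 0.000423, the smallest adjusted p of all 88 members, and NTG 3 did not stand apart in it. Hspa5 (chr2:34771970-34777547), the ER Hsp70 known as BiP, had 8891, 8286, 6212 and 9932 normalized counts in NTG and 6541, 6139 and 5524 in mNrf2-TG (Log2FC -0.46, SE 0.14, adjusted p = 0.0471). Hsp90b1 (chr10:86690209-86705509), the ER Hsp90 known as Grp94, had 6358, 6562, 4269.9 and 6796 normalized counts in NTG and 4277, 4483 and 3647 in mNrf2-TG (Log2FC -0.54, SE 0.15, adjusted p = 0.0352). In both genes NTG 3 lay within the mNrf2-TG range, and leaving out any library except NTG 3 ended the call, with adjusted p values of at most 0.156 and 0.127. For Hspa5 it was also lost in limma-voom (adjusted p = 0.0534) and on the scale of library totals (adjusted p = 0.0654). With NTG 3 left out, the differences were Log2FC -0.57, SE 0.087, adjusted p = 0.00163 for Hspa5 and Log2FC -0.67, SE 0.083, adjusted p = 0.000561 for Hsp90b1. Both carry the ER stress element shown above, and so does Dnajc3, a DNAJ cochaperone of the ER lumen, which had 913, 919, 796 and 703 normalized counts in NTG and 962, 811 and 643 in mNrf2-TG (Log2FC -0.05, SE 0.14, adjusted p = 0.844) and whose groups overlapped.

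Dnajc10, an ER protein that reduces disulfide bonds in misfolded clients, went the other way by value, with 436, 465, 794 and 573 normalized counts in NTG and 591, 845 and 724 in mNrf2-TG (Log2FC 0.35, SE 0.20, adjusted p = 0.257). NTG 3 was the highest NTG library here, and without it the difference passed the test (Log2FC 0.55, SE 0.14, adjusted p = 0.0181). Dnajb11, Dnajb12, Dnajb14, Dnajc1 and Hspa13 had a Log2FC from -0.15 (Dnajb12) to 0.091 (Dnajb14), and none of the 5 was called with or without NTG 3.

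Side by side, lower calls went from 3 to 8 of 10 in the stress-inducible list when NTG 3 was left out, from 2 to 5 of 8 in the mitochondrial list, and stayed at 3 of 10 in the ER list. The medians without NTG 3 were -1.08, -0.30 and -0.11. In the wider chaperone network described further on, the order was another, since lower calls went from 2 to 8 of 13 ER genes and stayed at 0 of 7 mitochondrial genes. Over all genes tested, lower calls went from 8.73% to 10.1%. No test compared the lists with each other. NTG 3 was the lowest NTG library in 9 of 10 stress-inducible, 4 of 8 mitochondrial and 5 of 10 ER members, and was left out after its values were seen. The gain in calls is therefore not a test of a difference between the lists.

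**Figure D3:**
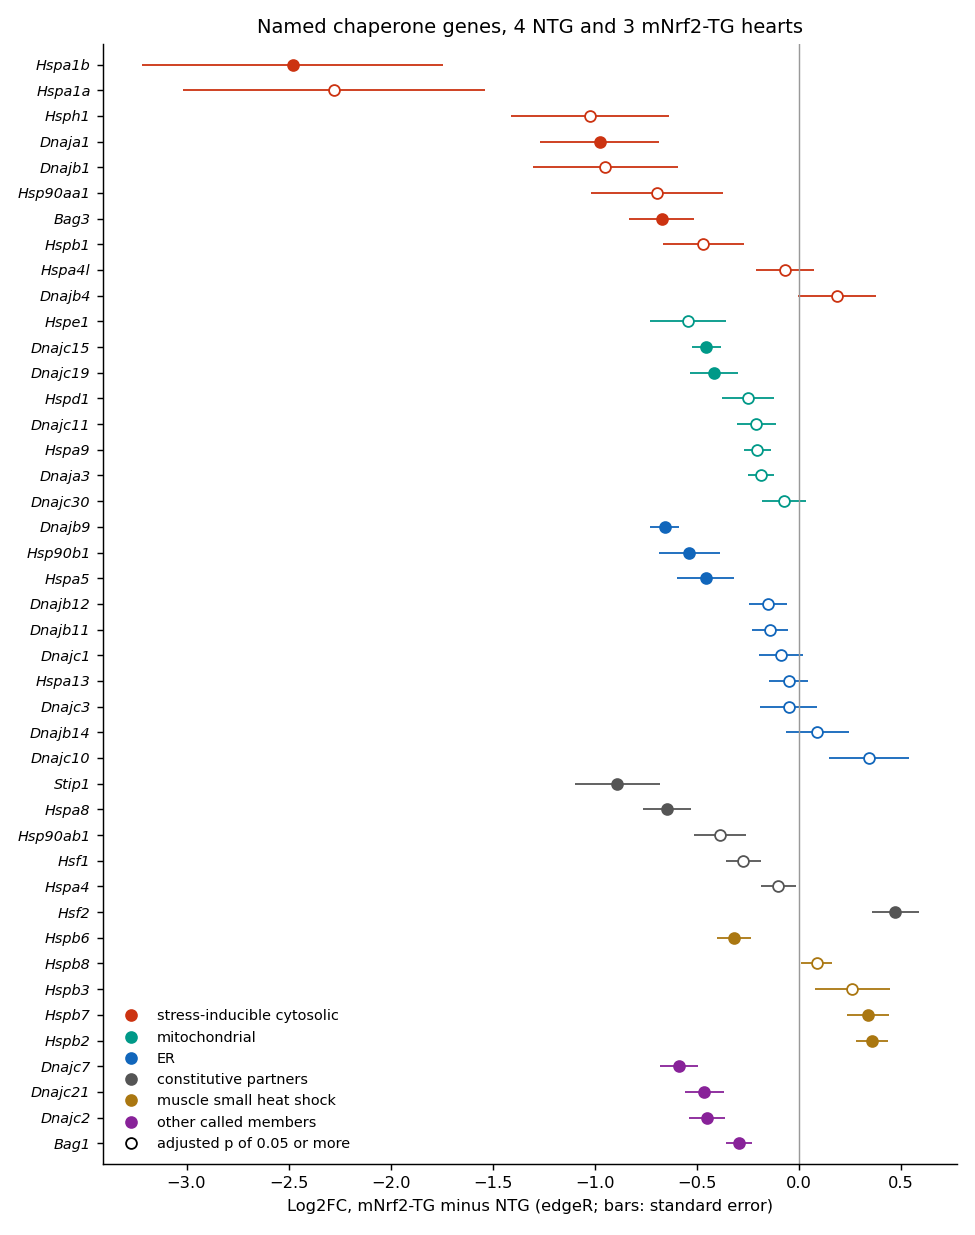
The Log2FC (horizontal axis, mNrf2-TG minus NTG) with its standard error for the members of the 5 lists and the other called members, 4 NTG against 3 mNrf2-TG hearts. Filled points had an adjusted p under 0.05 and open points did not, and colours mark the lists. Hspa1a and Hspa1b lie farthest to the left and have the widest bars, and Hspb2, Hspb7 and Hsf2 are the filled points to the right of 0.

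The small heat shock proteins of muscle, a list of 5, held 2 of the 3 members that were higher, and 1 that was lower. The shares over all genes were 8.48% higher and 8.73% lower. Hspb7, a cardiac protein that binds filamin and actin, had 25605, 21550.1, 30058 and 27054 normalized counts in NTG and 33894, 34026 and 30977 in mNrf2-TG. Its mNrf2-TG libraries were all above NTG (Log2FC 0.34, SE 0.10, adjusted p = 0.0447), and the call was lost in 6 of the 7 fits that left out 1 library, all except that without NTG 3 (adjusted p up to 0.131). Hspb2, which pairs with Hspb3 in muscle, had 636, 557, 616 and 567 normalized counts in NTG and 731, 731 and 821 in mNrf2-TG (Log2FC 0.36, SE 0.079, adjusted p = 0.0138), again with no overlap, and its call was lost without mNrf2-TG 19 (adjusted p = 0.0542). The locus of Hspb2 overlaps that of Cryab on the opposite strand, and 24.4% of its 50-base stretches are shared, chiefly with Cryab. Hspb6, known as Hsp20, was lower, with 10863, 9796, 12192 and 12266 normalized counts in NTG and 8869, 9259 and 9013 in mNrf2-TG (Log2FC -0.32, SE 0.085, adjusted p = 0.0293), a call that was lost without NTG 1, NTG 4 or any mNrf2-TG library (adjusted p up to 0.0970). Hspb8, the partner of Bag3, had 7135, 6182, 6842 and 7516 normalized counts in NTG and 7640.1, 7424 and 6972 in mNrf2-TG (Log2FC 0.086, SE 0.077, adjusted p = 0.48), and Hspb3 73.6, 52.2, 78.4 and 90.6 normalized counts in NTG and 99.0, 86.7 and 79.0 in mNrf2-TG (Log2FC 0.26, SE 0.18, adjusted p = 0.362). Neither passed the test. None of these 5 genes had its lowest NTG value in NTG 3. The cardiomyocyte marker sum, 592683 to 624042 in NTG and 502363 to 523760 for mNrf2-TG, stands beside these values, and its part in them was not tested.

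On the scale of normalized counts per kilobase of exon, which allows levels to be compared between genes, Hspb7 had the highest level, 9414 in NTG and 11905 in mNrf2-TG. It was followed in NTG by Hsp90ab1 at 6462, Hspb6 at 4906 and Hspb8 at 3548. Hspa8 was at 2420.2 and Hspa9 at 2408, the cytosolic and mitochondrial Hsp70, and Hspa5 of the ER was at 1969.8. The inducible Hspa1a and Hspa1b were far below these, at 370.1 and 394 in NTG and 77.0 and 71.1 in mNrf2-TG.

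Outside the lists 4 of 49 members were called, all lower, and 6 were lower without NTG 3. Of all genes tested, 8.73% were lower with all libraries and 10.1% without NTG 3, so the 4 of 49 is near the background. Dnajc7, a cochaperone that binds both Hsp70 and Hsp90, had 842, 958, 947 and 979.7 normalized counts in NTG and 696, 609 and 556 in mNrf2-TG (Log2FC -0.59, SE 0.093, adjusted p = 0.0033). Dnajc2, a DNAJ protein that sits on the ribosome, had 253, 264, 237 and 272 normalized counts in NTG and 195, 188 and 181 in mNrf2-TG (Log2FC -0.45, SE 0.087, adjusted p = 0.00801). Dnajc21, which takes part in ribosome assembly, had 440.2, 465, 469 and 552 normalized counts in NTG and 370.1, 333 and 346 in mNrf2-TG (Log2FC -0.46, SE 0.093, adjusted p = 0.00947). Bag1, which releases clients from Hsp70, had 1553, 1606, 1668 and 1714 normalized counts in NTG and 1324, 1312 and 1366 in mNrf2-TG (Log2FC -0.29, SE 0.065, adjusted p = 0.0138). In all 4 genes every mNrf2-TG library was below every NTG library, and NTG 3 did not stand apart. The call of Bag1 was lost without mNrf2-TG 17 (adjusted p = 0.0521) or 18 (adjusted p = 0.0504). The locus of Dnajc7 overlaps Cnp and Nkiras2 on the opposite strand.

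In all 14 alternative fits 6 of the 18 calls held: Dnajb9, Dnajc15, Dnajc2, Dnajc21, Dnajc7 and Hspa8. Of these, Dnajc7, Dnajc2 and Dnajc21 lie outside the lists, and none is in the stress-inducible list. Their Log2FC values ranged over the alternatives from -0.70 to -0.62 for Dnajb9, -0.48 to -0.42 for Dnajc15, -0.49 to -0.42 for Dnajc2, -0.50 to -0.39 for Dnajc21, -0.68 to -0.51 for Dnajc7 and -0.80 to -0.56 for Hspa8.

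Dnajc28, Dnajb2, Hsf4, Cct6a and Hspa12a fall outside the rule for named genes and were chosen after their values were seen. Dnajc28, a DNAJ protein of unclear role, had 742, 787, 25.8 and 762 normalized counts in NTG and 24.7, 21.7 and 327 in mNrf2-TG (Log2FC -2.19, SE 1.01, adjusted p = 0.165). NTG 3, mNrf2-TG 17 and mNrf2-TG 18 were at 21.7 to 25.8 normalized counts, and the remaining 4 libraries at 327 or more, so the split did not follow the groups. The locus overlaps the gene model Gm15964 on the opposite strand. Without NTG 3 it was called (Log2FC -2.57, SE 0.66, adjusted p = 0.0212), and the same held for Dnajb2 (Log2FC -0.29, SE 0.091, adjusted p = 0.0499).

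**Figure D4:**
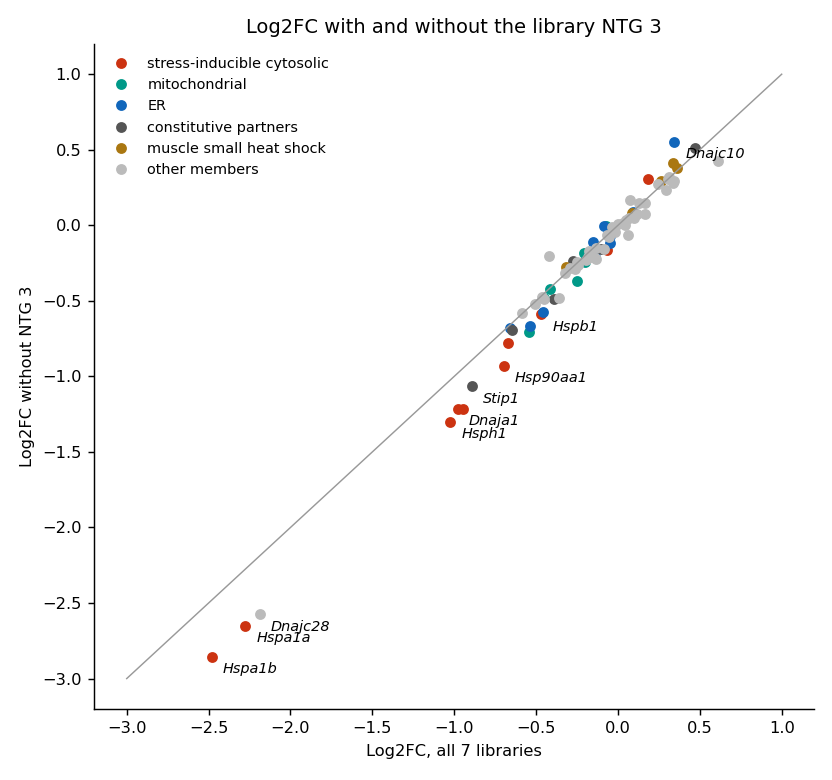
The Log2FC of the members with a mean count of at least 10 in the fit without NTG 3 (vertical axis) against that in the fit of all 7 libraries (horizontal axis). The line marks equal values, points are coloured by list, and 9 of the 10 stress-inducible genes lie below the line (Dnajb4 lies above it), with Hspa1b at -2.48 with all libraries and -2.86 without NTG 3. These 9 are the stress-inducible genes with their lowest NTG value in NTG 3, so leaving it out sets their place below the line.

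By family, 0 of the 9 Cct members were called, and the lowest Log2FC among those with a mean count of 10 or more was -0.14 (Cct6a). These genes encode subunits, and relatives of subunits, of TRiC, the chaperonin that folds actin and tubulin, and their median Log2FC was 0.044, although 8 of 9 had their lowest NTG value in NTG 3. Among all genes tested, 8.73% were lower with all libraries and 10.1% without NTG 3. Counts in families of a few genes say little beside these shares. Of the 6 Bag members 2 were lower, Bag1 and Bag3. Of 25 Dnajc members 5 were lower, of 10 Dnajb members 1, of 4 Dnaja members 1, of 11 Hsp70 members 3 and of 3 Hsp90 members 1, while of 3 Hsp110 members and of the pair Hspd1 and Hspe1 0 were. With NTG 3 left out, the lower calls were 2 for Bag, 6 for Dnajc, 3 for Dnajb, 1 for Dnaja, 5 for Hsp70, 3 for Hsp90, 1 for Hsp110 and 2 for Hspd1 and Hspe1, with 0 again for Cct. In the Hsp70 family 10 of 11 had a negative Log2FC, the exception being Hspa12a, a distant relative, with 315, 310.5, 251 and 265 normalized counts in NTG and 285, 446 and 346 in mNrf2-TG (Log2FC 0.33, SE 0.15, adjusted p = 0.15).

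The promoter letters divided the called members as follows. Of the 20 members with a pair of heat shock units, 4 were lower and 0 higher, and their median Log2FC was -0.25. Of the 52 members with a window and no pair, 9 were lower and 2 higher, with a median of -0.12. With NTG 3 left out, the calls in either direction were 10 of 20 and 14 of 52. Over all genes tested, 8.73% were lower and 8.48% higher, and 10.1% each without NTG 3. The 20 include stress-inducible genes with their lowest NTG value in NTG 3, so the gain is no test of the letters. Of the 3 members with the ER stress element 2 were lower. Of the 13 members with the antioxidant response element core 1 was lower and 0 higher, and of the 59 without it 12 were lower and 2 higher, with a median of -0.14 in both.

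Other genes of the chaperone network, 40 in number and not part of the 88, gave 6 lower and 0 higher with all 7 libraries, at a median Log2FC of -0.24. Without NTG 3, 20 were lower. The shares of all genes called lower were 8.73% with all libraries and 10.1% without NTG 3. Of 12 cytosolic cochaperones 3 were lower: Fkbp4 (Log2FC -0.87, SE 0.10, adjusted p = 0.000716) and Fkbp5 (Log2FC -1.05, SE 0.32, adjusted p = 0.0465), both cochaperones of Hsp90 with steroid receptors, and Sgta (Log2FC -0.30, SE 0.064, adjusted p = 0.0118), which guides tail-anchored proteins. Without NTG 3 the count was 10 of 12. Fkbp5 had 479, 860, 1308 and 460 unscaled counts in NTG 1 to 4 and 319, 390 and 448 in mNrf2-TG 17 to 19. NTG 3 was its highest library. Of the fits that left out 1 library, only that without NTG 3 is given here for these network genes. All 13 ER genes had a negative Log2FC, 10 of 13 had their lowest NTG value in NTG 3, and 2 were lower with all 7 libraries and 8 without NTG 3. The 2 were Sec63 of the translocon (Log2FC -0.39, SE 0.086, adjusted p = 0.0136) and Xbp1, a factor of the unfolded protein response (Log2FC -0.34, SE 0.088, adjusted p = 0.0265). In the mitochondrial group 0 of 7 were called, with or without NTG 3. Of the 7 genes of TRiC and prefoldin 1 was lower, Pfdn2 (Log2FC -0.31, SE 0.078, adjusted p = 0.0249), and the count was again 1 with NTG 3 left out. Cryab, the small heat shock protein αB-crystallin, had a mean of 16142 ± 1782 normalized counts in NTG (SD, n = 4) and 13271 ± 703 in mNrf2-TG (SD, n = 3), with a Log2FC of -0.28 (SE 0.089, adjusted p = 0.0541), and was called lower without NTG 3 at a Log2FC of -0.33.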

How the data were processed

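The authors sequenced poly(A)-selected RNA with stranded libraries as single reads of 50 bases and deposited counts per gene without normalization. The submitters' processing notes name Novoalign 2.08.01, DESeq2 1.32.0 and mm10 (GRCm38), while the methods also name hg19 once. The counting program and its use of strand are not given in the sources used here. A deposited signal column, the authors' mean of scaled counts over all libraries, entered no test. The fold changes, p-values and rlog values of the authors were not used.

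Groups followed the genotype labels. Of 14665 entries, 24 repeated Entrez genes were removed, and the 14637 genes with a summed count above 1 were compared in edgeR 4.0.16 (R 4.3.3) with TMM normalization, the quasi-likelihood test and Benjamini-Hochberg adjustment over all of them. The test is 2-sided, SE is the absolute Log2FC over the square root of F, and normalized counts are at the mean library size. Positions and exon lengths are from GENCODE M21. The share of 50-base stretches was counted over all of its transcripts. DESeq2 1.42.0, limma-voom 3.58.1, other scales and filters, and leaving out each library were alternatives. In simulated counts 92% of 200 genes changed at a Log2FC of 1.5 were recovered, and 7.07% of the calls were false. Named genes were all members of 5 lists and every other called member. The members, lists and markers were chosen with earlier results of these data known. 2 markers, Hbb-bt and Cidec, were not analysed here.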

Additional observations from a re-analysis of the deposited data

Results flagged for a closer look

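In 7 of the 88 members (7.955%) a single NTG library lay so far from the other 3 that the gap to its neighbour, as a share of the range of the group, was above Dixon's 95% critical value for 4 samples. Among all genes tested the share was 7.584%, and chance gives about 1 in 20. In 2 of the 7 genes NTG 3 was the lowest library, Dnajc28 with a ratio of 0.941 and Hspe1 with 0.848. Of the 10 stress-inducible members 0 were flagged. Dnajc28 had 25.8 normalized counts in NTG 3 and 742 to 787 in the other NTG libraries. Hspe1 had 461 in NTG 3 and 774 to 829.8 in the other NTG libraries. NTG 3 was the highest library for Dnajc1 (0.880), where it had 345 normalized counts. NTG 4 was the highest for Dnajb6 (0.908) with 386 normalized counts. The remaining flags were on genes with a mean count under 10: Dnajb3, where NTG 2 was the lowest (0.866), Dnajc6, where NTG 4 was the highest (ratio 1), and Hsf3, where NTG 1 was the highest (ratio 1). For these the ratio turns on single counts.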

How the results depend on the processing

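Across the 14 alternative fits, the Log2FC of the 43 named members kept its direction and its side of the threshold in 524 of 602 combinations, lost its call in 58, gained one in 15 and turned its sign in 5. The turned signs were of Dnajc3, whose Log2FC ranged over the fits that left out 1 library from -0.20 to 0.094, and Hspa4l, with -0.16 to 0.062, neither of them called.

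Leaving out each library in turn gave 1 to 4 members higher and 8 to 26 lower (3 and 15 with all libraries), 0 to 8 stress-inducible members lower (3), 1 to 5 mitochondrial members called (2) and 1 to 4 ER members called (3). The highest count of each came without NTG 3. With 6 libraries instead of 7 the calls over all genes went from 1373 to 2950, against 2519 with all libraries. Under an unadjusted p under 0.05 with a fold change above 2, 0 members were higher and 3 lower. In limma-voom 1 stress-inducible member was lower, in the DESeq2 Wald test 4 mitochondrial members were called, and 1 was when libraries were scaled by their totals. The cause of these shifts was not tested. The library total moved the median of all genes by less than 0.1, to 0.031.

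No paired analysis was possible because the groups share no replicate numbers. The ages are given differently in the labels, methods and design text, and 3 and 4 hearts per group, with counts of a few reads in 6 members, limit what is detectable.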
